A study of Mus musculus with 6 samples.

Results

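The 44 genes described here act in the DNA damage checkpoint and in DNA repair. They were taken by gene symbol from the expression table that the authors deposited, which lists 53700 genes, and all 44 were among the 12510 genes tested. By pathway, 12 belong to the checkpoint, 14 to homologous recombination, 7 to the Fanconi anaemia pathway, 3 to mismatch repair, 4 to excision repair and 4 to non-homologous end joining. Each symbol named 1 gene of the table, so no measured value entered the choice by symbol. RNA-seq was performed on SL4 cells, a mouse colorectal cancer (CRC) line, in 2 groups of 3 libraries: cells labelled as lacking SEMA6A overexpression (control) and cells that stably overexpress the semaphorin SEMA6A from a lentivirus (SEMA6A). Both groups are the same cell line, and the labels give no other treatment and no time point. The study describes 1 stable pLV-SEMA6A line, so an effect of SEMA6A and a difference between cell lines cannot be told apart, and the study names the sequenced control both SL4 and pLV-Control, so whether it carried the empty vector is unclear. Nothing says that the 3 libraries of a group came from separate cultures, so p-values measure the spread among these libraries, which may be technical.

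Levels are in TPM, each transcript's share of all transcripts corrected for gene length, so the levels of different genes can be compared. Sema6a was listed at 0 TPM in every control library against 98.7, 118 and 112 TPM in the SEMA6A libraries, in the direction of the labels. Log2 TPM values correlated at 0.967 to 0.978 among control libraries, at 0.974 to 0.978 among SEMA6A libraries and at 0.941 to 0.957 between the groups. Of 10 colon epithelial markers, all 10 were under 1 TPM in every library, and Epcam, Cdx1 and Cdx2 were at 0, so the defining markers of colon epithelium were at or near 0 in both groups. Immune markers were under 1 TPM in every library for 8 of 9 genes, and their summed level ran from 1.05 to 2.53 TPM in control and from 0.87 to 1.76 TPM in SEMA6A cells. Fibroblast and endothelial markers were under 1 TPM in 4 of 8 cases, with Cdh5 at 0, but their summed level was 114 to 130.0 TPM in control and 175 to 182 TPM in SEMA6A cells, of which Col3a1 was the highest member at up to 176 TPM. The part of these markers in the results below was not tested.

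Cells answer broken or stalled DNA with a signalling cascade and several repair routes. The kinases ATM and ATR sense double-strand breaks and exposed single-stranded DNA, respectively, and signal through CHEK2 and CHEK1 to halt the cell cycle. Homologous recombination copies the lost sequence from a sister chromatid, end joining religates broken ends directly, the Fanconi pathway handles crosslinks between the strands, mismatch repair corrects replication errors, and excision repair removes damaged bases or bulky lesions. Loss of mismatch repair is well known in colorectal cancer.

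The summed level of all 44 checkpoint and repair genes overlapped between the groups. The sum was 876, 877 and 883 TPM in the control libraries and 866, 867 and 883 TPM in the SEMA6A libraries. By pathway, every SEMA6A library was lower for the checkpoint, at 253 to 267 TPM beside 270 to 281 TPM in control. Each was also lower for mismatch repair, at 40.9 to 46.0 TPM beside 47.0 to 48.1 TPM. For excision repair each was higher, by a narrow margin, at 112.46 to 129.71 TPM beside 105.74 to 112.42 TPM. The sums of the other pathways overlapped. In limma's test on log2(TPM + 1) with Benjamini-Hochberg adjustment over all 12510 genes, 5 of 44 members passed at an adjusted p under 0.05 as higher in SEMA6A cells, 8 passed as lower and 31 did not pass. The 5 that rose are 11.4% of the members against 19.5% of all genes tested, and the 8 that fell are 18.2% against 28.2%, so both shares lay below the background on the deposited scale, a difference that was not tested. Differentially expressed genes (DEGs), which must also change by over 0.5 on the log2 scale, numbered 2 upregulated and 1 downregulated, beside 5.12% and 10.8% of all genes tested. The 3 control and 3 SEMA6A libraries did not overlap for 19 members, 9 of them higher and 10 lower in SEMA6A cells, which is 43.2% of the members beside 58.5% of all genes. An exact permutation test of 3 against 3 libraries cannot give a p below 0.1, also where the groups do not overlap.

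The balance of rises and falls depended on how the libraries were scaled. With library medians set equal, 10 members were higher (22.7%) and 4 lower (9.09%), beside 26.9% and 19.8% of all genes tested. After quantile normalization 11 were higher (25%) and 3 lower (6.82%), beside 23.9% and 21.6% of all genes tested, so the share of rises then lay slightly above the background. Over all genes the share of calls that were higher moved from 40.9% as deposited to 57.7% and 52.5%. The median log2 TPM level of a library, over the genes tested, was 4.31 in each control library and 4.21 to 4.22 in the SEMA6A libraries. Without the third SEMA6A library 5 members were lower (11.4%), beside 23.9% of all genes tested. Upregulated DEGs numbered 5 without the second SEMA6A library, and downregulated DEGs 0 without the second or the third library of either group. Of the 13 members that passed, 7 passed in all 13 alternative fits: Rad51ap1, Ung, Xpa and Xrcc5 were higher, and Rad9a, Wrn and Xrcc6 were lower. The median log2 fold change over the 44 members was -0.050, beside -0.064 over all genes tested, and the members ranged from -0.60 to 0.63. The size of a member's change, without its sign, had a median of 0.16 on the log2 scale beside 0.24 over all genes tested.

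**Figure D1:**
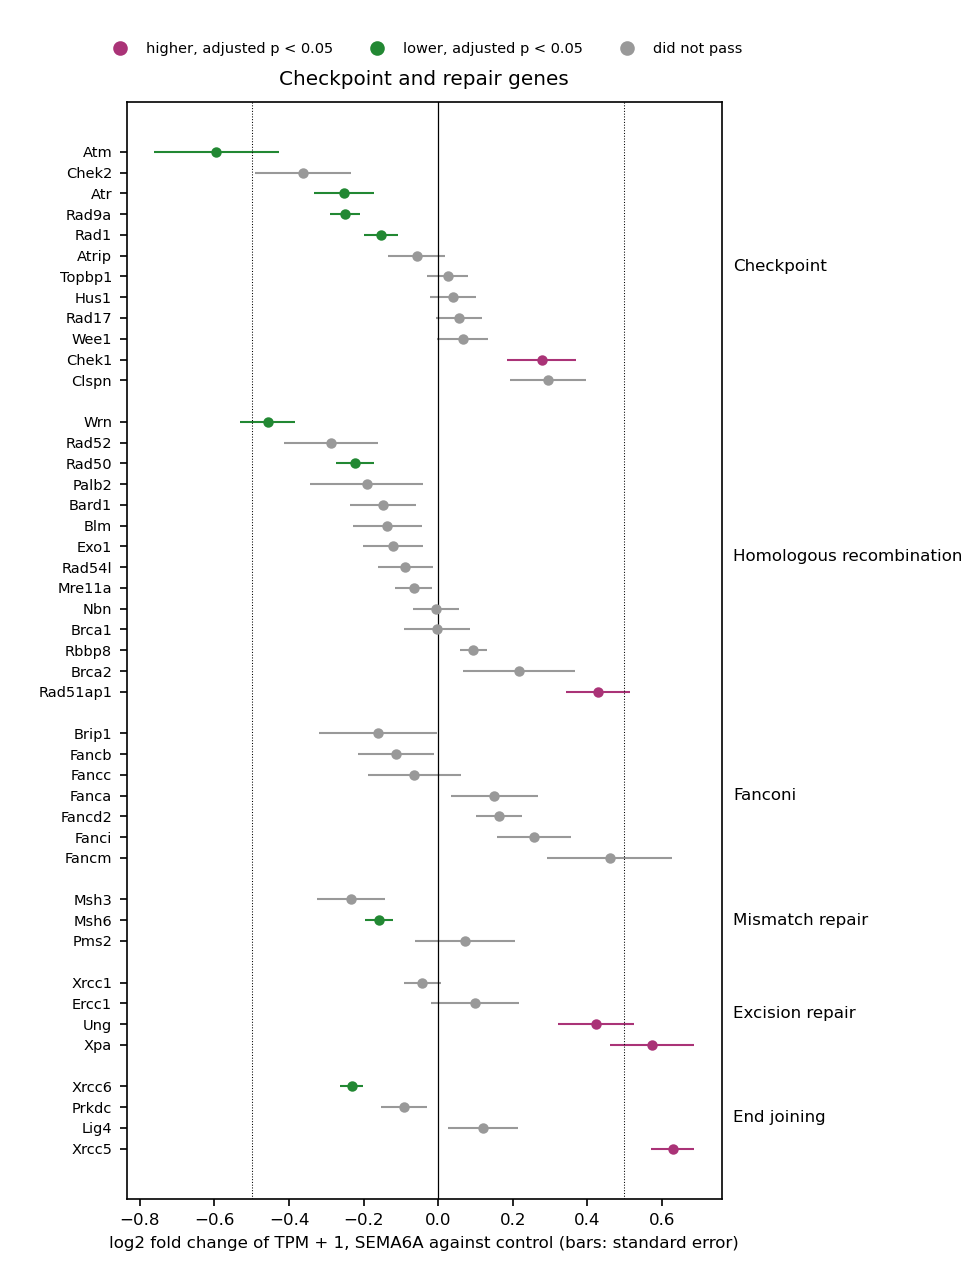
Fitted log2 fold change of TPM + 1 (SEMA6A against control, horizontal axis) for the 44 members, ordered within each pathway, with bars for the standard error of the fit on 3 libraries per group and dotted lines at a change of 0.5 in either direction. All other members lie within the dotted lines, while Xrcc5 at 0.63 and Xpa at 0.57 lie beyond them on the right, and Atm at -0.60 lies beyond them on the left.

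The clearest change was in the Ku heterodimer, whose subunits moved in opposite directions. Ku80, encoded by Xrcc5, and Ku70, encoded by Xrcc6, form the ring that slides onto broken DNA ends and opens non-homologous end joining. Xrcc5 was at 28.1, 27.9 and 25.4 TPM in control cells and at 43.2, 40.2 and 44.1 TPM in the SEMA6A libraries. Every SEMA6A library was above every control library, and the log2 fold change of 0.63 (SE 0.058, adjusted p = 2.7e-04 by limma) was the largest of the 44 members. Xrcc6, the most abundant member, stood at 133, 130.5 and 136 TPM in control and at 116, 113 and 111 TPM in the SEMA6A libraries, again without overlap. It fell with a log2 fold change of -0.23 (SE 0.030, adjusted p = 0.0012 by limma). The ratio of Xrcc6 to Xrcc5 TPM was 4.74, 4.67 and 5.38 in the control libraries and 2.69, 2.80 and 2.52 in the SEMA6A libraries. Its mean was 4.93 ± 0.39 against 2.67 ± 0.14 (SD, n = 3 each), and it was chosen for this comparison after the values were seen. Both genes already differed without overlap in opposite directions, so their ratio had to separate the groups. Its two-sided exact permutation p of 0.1, the smallest that 3 against 3 can give, was thus fixed in advance and adds no support. Both genes passed limma's test in all 13 alternative fits, where the log2 fold change of Xrcc5 ran from 0.58 to 0.72 and that of Xrcc6 from -0.27 to -0.14. Xrcc5 shares no 31-base stretch of its exons with another gene, whereas 7.69% of the exon bases of Xrcc6 overlap Desi1 on the opposite strand. Desi1 stood at 68.6 and 68.0 TPM (means) in the control and SEMA6A groups. Whether the libraries kept strand is not given in the sources used here, so reads in that overlap cannot be told apart.

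The promoters of both Ku genes were chosen after the values were seen and are shown because their transcripts moved apart. The submitters' processing notes name the build mm39, and genes were matched to the older build by identifier, so coordinates here are those of GRCm38. In GENCODE M21 the protein-coding gene Xrcc5 lies at chr1:72307421-72394952 on the + strand and Xrcc6 at chr15:81987835-82040085 on the + strand. Each window runs from 250 bases before to 50 bases after the RefSeq start on the GRCm38.p6 build, 300 bases in all, written 5′ to 3′ on the gene's strand. The window of Xrcc5 is chr1:72307171-72307470 and that of Xrcc6 chr15:82016119-82016418, which lies inside the longer gene model. Capitals mark matches, on either strand, to 2 motifs: the E2F motif of cell cycle genes, searched as TTTCCCGC, TTTGGCGC and TTCCCGCC, and the NF-Y motif CCAAT. The Xrcc6 window holds an E2F match beginning 46 bases before the start and a CCAAT match inside the transcribed stretch, whereas the Xrcc5 window holds a CCAAT match and no E2F match.
Xrcc5: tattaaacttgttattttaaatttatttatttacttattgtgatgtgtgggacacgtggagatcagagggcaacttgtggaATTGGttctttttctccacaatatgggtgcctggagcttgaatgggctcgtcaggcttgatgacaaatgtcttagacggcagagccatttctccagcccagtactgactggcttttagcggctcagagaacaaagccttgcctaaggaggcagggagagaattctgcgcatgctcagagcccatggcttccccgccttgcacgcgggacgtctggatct
Xrcc6: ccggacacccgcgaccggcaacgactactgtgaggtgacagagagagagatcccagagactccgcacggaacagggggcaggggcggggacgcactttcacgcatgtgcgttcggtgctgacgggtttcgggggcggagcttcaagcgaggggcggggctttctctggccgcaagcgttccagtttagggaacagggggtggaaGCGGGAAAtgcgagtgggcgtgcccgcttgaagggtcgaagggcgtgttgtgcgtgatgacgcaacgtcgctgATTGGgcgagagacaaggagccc

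The other end joining members did not pass. Prkdc, the catalytic subunit that Ku recruits to form DNA-PK, was at 7.59, 7.24 and 7.47 TPM in control and at 6.80, 7.0 and 6.95 TPM in the SEMA6A libraries, all of the latter below the former, with a log2 fold change of -0.091 (SE 0.062, adjusted p = 0.27 by limma). Lig4, the ligase that seals the break, was at 4.97, 4.47 and 5.27 TPM and 5.89, 5.13 and 5.23 TPM in the same order, with overlapping libraries and a log2 fold change of 0.12 (SE 0.094, adjusted p = 0.33 by limma). It passed as higher only after quantile normalization (adjusted p = 0.042 by limma). Among 12 further end joining genes tested, none rose, 5 fell (41.7%) and 7 did not pass, beside 19.5% higher and 28.2% lower over all genes tested. Aplf, a scaffold that helps ligation, fell most, from 8.03 ± 1.2 to 4.90 ± 0.26 TPM (mean ± SD, n = 3 each, log2 fold change -0.61, SE 0.11, adjusted p = 0.0053 by limma).

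**Figure D2:**
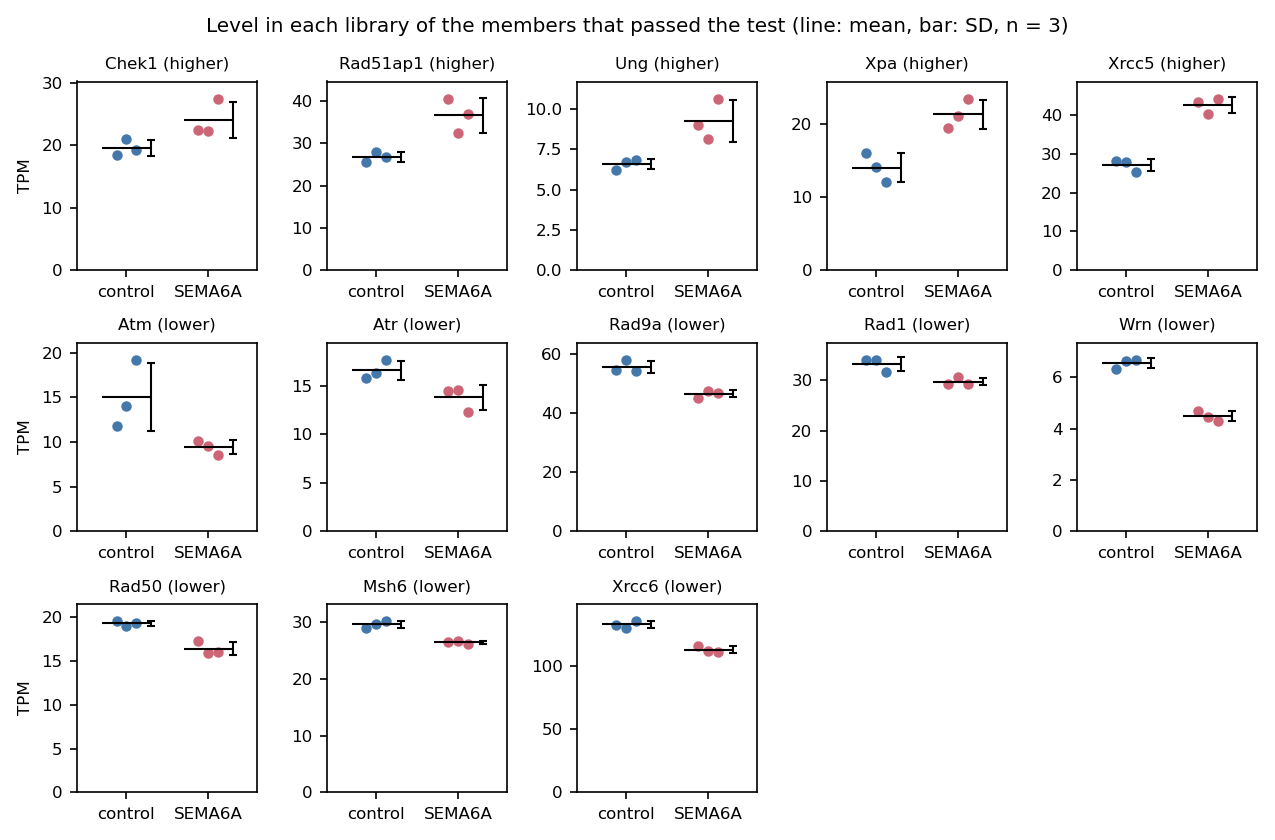
TPM in each library (vertical axes from 0) for the 13 members that passed the test, with 3 control and 3 SEMA6A libraries as points, a line at the group mean and a bar for the SD. The groups do not overlap in any of the 13 panels: in the 5 panels marked higher each SEMA6A point is above each control point, and in the 8 marked lower it is below.

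Among the checkpoint genes, transcripts of the 2 apical kinases fell and those of one effector kinase rose. Of the 12 members, 4 passed as lower (Atm, Atr, Rad9a and Rad1), 1 as higher (Chek1) and 7 did not pass. The falls are 33.3% of the 12, beside 28.2% of all genes tested, and the rise 8.33%, beside 19.5%. The median log2 fold change was -0.016. Atm was at 11.8, 14.01 and 19.2 TPM in control cells and at 10.1, 9.58 and 8.54 TPM in the SEMA6A libraries. The groups did not overlap, but the control libraries were spread widely, and the third was above the other two. Atm was the only downregulated DEG of the 44 (log2 fold change -0.60, SE 0.17, adjusted p = 0.027 by limma). Without the third control library the log2 fold change was -0.41, and the adjusted p by limma was 0.057 without the second control library, 0.061 without the second and 0.081 without the third SEMA6A library. After quantile normalization its log2 fold change was -0.47 (adjusted p = 0.064 by limma). Atr fell from 15.8, 16.3 and 17.7 TPM in the control to 14.5, 14.6 and 12.3 TPM in the SEMA6A libraries, with a log2 fold change of -0.25 (SE 0.081, adjusted p = 0.041 by limma). This call was kept in 1 of 6 fits that left out a library, the one without the second SEMA6A library, and in the other 5 the adjusted p by limma was 0.057 to 0.12. Atr also did not pass with library medians set equal (log2 fold change -0.16, adjusted p = 0.14 by limma) or after quantile normalization (log2 fold change -0.15, adjusted p = 0.17 by limma). Atrip, the partner that brings ATR to single-stranded DNA, was at 17.4 ± 0.58 and 16.7 ± 1.6 TPM (mean ± SD, n = 3 each) and did not pass. It shares 16.0% of its exon bases with Trex1 on the same strand, a gene that fell (log2 fold change -0.39, adjusted p = 0.0090 by limma).

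Of the effector kinases, Chek1 passed as higher and Chek2 did not pass. Chek1, the kinase that ATR activates, was at 18.5, 21.1 and 19.2 TPM in control and at 22.4, 22.3 and 27.4 TPM in the SEMA6A libraries, of which the third was the highest. The log2 fold change was 0.28 (SE 0.094, adjusted p = 0.048 by limma). It did not pass in any of the 6 fits that left out a library, where the adjusted p by limma ran from 0.052 to 0.13. Without the third SEMA6A library its log2 fold change was 0.18. Chek2, the kinase that ATM activates, was at 16.7, 19.9 and 21.0 TPM in control and at 13.1, 17.5 and 13.7 TPM in the SEMA6A libraries. These libraries overlapped, and the log2 fold change of -0.36 (SE 0.13, adjusted p = 0.057 by limma) did not pass. It passed as lower without the first control library (adjusted p = 0.040 by limma) or without the second SEMA6A library (adjusted p = 0.016 by limma). Clspn, the adaptor claspin that lets ATR phosphorylate CHEK1, was at 9.84, 12.9 and 10.4 TPM in control and at 14.3, 13.02 and 13.8 TPM in the SEMA6A libraries, which did not overlap, with a log2 fold change of 0.30 (SE 0.10, adjusted p = 0.053 by limma). It passed as higher without the second control library (adjusted p = 0.0082 by limma) and under both other scalings. Wee1, which inhibits the mitotic kinase CDK1, was at 13.2 ± 0.37 and 13.8 ± 1.1 TPM (mean ± SD, n = 3 each) and did not pass.

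The promoter windows of Atm, by the rule for downregulated DEGs, and of Chek1, chosen after its values were seen, are shown with the same capitals. Atm lies at chr9:53439149-53536740 and Chek1 at chr9:36708482-36727065, both on the - strand, and the windows are chr9:53536622-53536921 and chr9:36726609-36726908. Like that of Xrcc6, the whole Chek1 window lies inside the longer gene model. The Chek1 window holds an E2F match that begins at base 43 counted from the start and the Atm window a CCAAT match.
Atm: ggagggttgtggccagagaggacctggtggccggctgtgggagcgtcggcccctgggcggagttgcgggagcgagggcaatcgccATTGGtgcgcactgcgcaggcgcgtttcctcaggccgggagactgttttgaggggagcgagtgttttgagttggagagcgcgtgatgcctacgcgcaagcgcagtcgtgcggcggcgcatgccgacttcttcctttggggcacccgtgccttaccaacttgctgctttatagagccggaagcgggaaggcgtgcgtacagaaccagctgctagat
Chek1: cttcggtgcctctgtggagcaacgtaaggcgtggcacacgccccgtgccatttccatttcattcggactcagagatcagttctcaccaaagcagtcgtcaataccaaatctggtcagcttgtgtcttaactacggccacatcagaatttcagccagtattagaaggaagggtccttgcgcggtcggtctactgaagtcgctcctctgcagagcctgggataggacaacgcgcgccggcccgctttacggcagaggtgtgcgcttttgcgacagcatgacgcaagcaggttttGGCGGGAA

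The 9-1-1 clamp, which is loaded onto damaged DNA and helps activate ATR, had 2 subunits that fell and 1 that did not pass. Rad9a was at 54.6, 58.1 and 54.1 TPM in control and at 45.3, 47.6 and 46.9 TPM in the SEMA6A libraries. The groups did not overlap, and Rad9a fell with a log2 fold change of -0.25 (SE 0.041, adjusted p = 0.0032 by limma), the smallest adjusted p among the checkpoint members. The log2 fold change ran from -0.27 to -0.16 in the alternative fits, all of which called it. Rad1 fell from 34.1, 33.9 and 31.6 TPM to 29.2, 30.6 and 29.3 TPM, with a log2 fold change of -0.15 (SE 0.046, adjusted p = 0.032 by limma). Without the first or the second control library, or the first or the third SEMA6A library, Rad1 did not pass (adjusted p by limma 0.096, 0.095, 0.089 and 0.085). Nor did it pass with library medians set equal (log2 fold change -0.061, adjusted p = 0.31 by limma) or after quantile normalization (log2 fold change -0.094, adjusted p = 0.15 by limma). Hus1 was at 11.3 ± 0.50 and 11.7 ± 0.54 TPM (mean ± SD, n = 3 each). The ratio of Rad9a to Hus1 transcripts was 4.92 ± 0.13 in control and 4.0 ± 0.25 in SEMA6A cells (two-sided exact permutation p = 0.1). This ratio was chosen after Rad9a was seen to be lower without overlap, so its p is no separate support. On the opposite strand, 9.53% of the exon bases of Rad9a overlap Ppp1ca, a phosphatase gene that rose from a mean of 271 to 364 TPM (log2 fold change 0.42, adjusted p = 8.4e-05 by limma). Reads in that overlap cannot be assigned to a strand with the sources used here. The clamp loader subunit Rad17 and the ATR activator Topbp1 were at 17.4 ± 0.42 and 47.3 ± 2.3 TPM in control and at 18.1 ± 1.3 and 48.2 ± 2.6 TPM in SEMA6A cells (mean ± SD, n = 3 each), and neither passed.

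**Figure D3:**
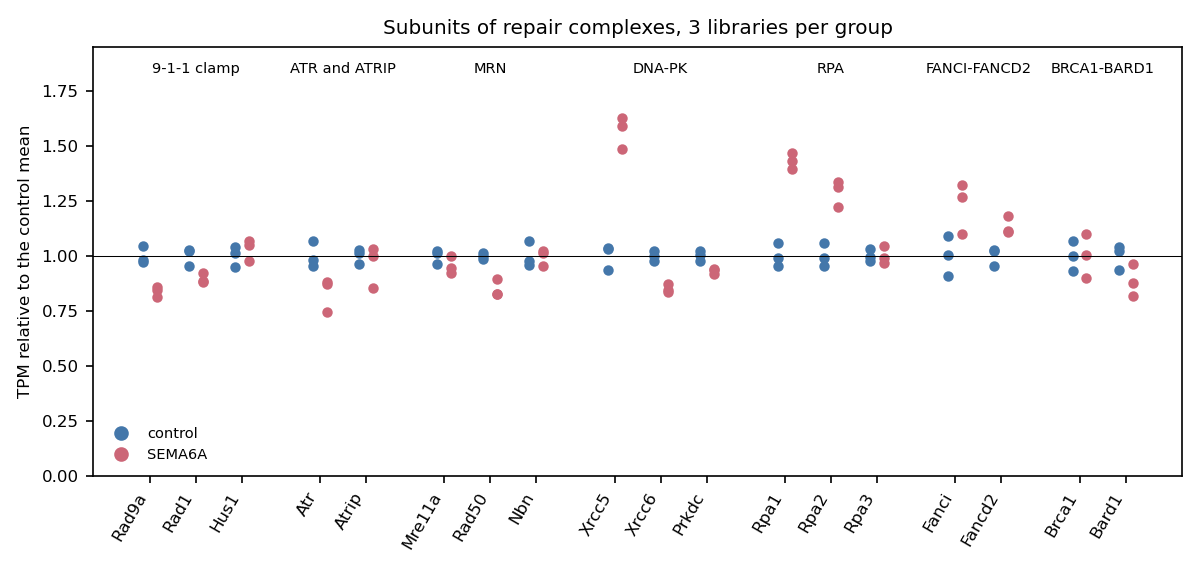
TPM of each subunit divided by its mean over the control libraries (vertical axis from 0), with 3 control and 3 SEMA6A libraries as points, for 7 complexes named above the points. Control points scatter around 1. Among the SEMA6A points, those of Xrcc5, Rpa1, Rpa2, Fanci and Fancd2 all lie above 1. Those of Xrcc6, Prkdc, Rad9a, Rad1, Atr, Rad50, Mre11a and Bard1 all lie below it. Those of Hus1, Rpa3, Atrip, Nbn and Brca1 lie on both sides.

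Of the 14 homologous recombination members, 2 fell (Wrn and Rad50), 1 rose (Rad51ap1) and 11 did not pass, with a median log2 fold change of -0.10. The falls and the rise are 14.3% and 7.14% of the 14, beside 28.2% and 19.5% of all genes tested. Rad51ap1, a cofactor that stimulates strand exchange, was at 25.6, 28.0 and 26.7 TPM in control and at 40.5, 32.3 and 36.8 TPM in the SEMA6A libraries, so the SEMA6A libraries were all higher and more spread. The log2 fold change was 0.43 (SE 0.085, adjusted p = 0.0065 by limma), and it stayed between 0.35 and 0.52 in the alternative fits. Wrn, the helicase lost in Werner syndrome, was at 6.31, 6.61 and 6.68 TPM in control and at 4.69, 4.46 and 4.31 TPM in the SEMA6A libraries. All SEMA6A libraries were lower, with little spread in either group, and the log2 fold change was -0.46 (SE 0.075, adjusted p = 0.0030 by limma). It ran from -0.53 to -0.28 in the alternative fits, all of which called it. Rad52, which anneals complementary single strands, was at 20.1, 23.8 and 19.8 TPM in control and at 14.5, 20.1 and 17.2 TPM in the SEMA6A libraries, which overlapped. Its log2 fold change was -0.29 (SE 0.13, adjusted p = 0.10 by limma), and it passed as lower without the second SEMA6A library (adjusted p = 0.036 by limma).

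The MRN complex, which holds broken ends together and activates ATM, had 1 subunit that fell. Rad50 was at 19.6, 19.1 and 19.3 TPM in control and at 17.3, 16.0 and 16.0 TPM in the SEMA6A libraries, without overlap (log2 fold change -0.22, SE 0.051, adjusted p = 0.012 by limma). It did not pass with library medians set equal (adjusted p = 0.074 by limma) or after quantile normalization (adjusted p = 0.076 by limma). The nuclease subunit Mre11a was at 20.9 ± 0.66 and 20.0 ± 0.82 TPM and Nbn at 12.8 ± 0.73 and 12.8 ± 0.49 TPM (mean ± SD, n = 3 each). The ratio of Rad50 to Mre11a was 0.92 ± 0.018 in control and 0.82 ± 0.056 in SEMA6A cells (two-sided exact permutation p = 0.1). This ratio was chosen after Rad50 was seen to be lower without overlap, so its p is no separate support. Rbbp8, the CtIP protein that works with MRN to trim the ends, was at 36.0, 35.8 and 37.1 TPM in control and at 39.0, 39.3 and 38.2 TPM in the SEMA6A libraries. The SEMA6A libraries were all higher, by a small margin, and the log2 fold change of 0.095 did not pass (adjusted p = 0.067 by limma). Under both other scalings it passed as higher (adjusted p = 0.0047 and 0.013 by limma).

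The breast cancer genes and their partners showed overlapping libraries. Brca1, which directs breaks towards recombination, was at 8.80, 10.1 and 9.44 TPM in control and at 8.49, 9.45 and 10.4 TPM in the SEMA6A libraries, and its partner Bard1 was at 5.51 ± 0.31 and 4.88 ± 0.40 TPM (mean ± SD, n = 3 each). Brca2, which loads the recombinase, was at 14.2, 12.7 and 13.7 TPM and 16.7, 12.4 and 19.3 TPM in the same order. The second SEMA6A library was below all controls and the other SEMA6A libraries were above them, and without that second library Brca2 passed as higher (log2 fold change 0.39, adjusted p = 0.018 by limma). With all libraries its log2 fold change was 0.22 (adjusted p = 0.28 by limma). Palb2, which bridges BRCA1 and BRCA2, was at 6.17 ± 1.3 and 5.23 ± 0.67 TPM, and Rad54l, a motor protein of strand exchange, at 9.01 ± 0.47 and 8.42 ± 0.56 TPM (mean ± SD, n = 3 each). The helicase Blm and the nuclease Exo1, which resect ends, were at 17.1 ± 2.0 and 14.4 ± 1.3 TPM in control and at 15.5 ± 0.90 and 13.1 ± 0.92 TPM in SEMA6A cells. Blm passed as lower without the second control library (adjusted p = 0.044 by limma).

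The Rad51ap1 promoter window, on the - strand at chr6:126939538-126939837, is shown because Rad51ap1 and Chek1 are the members with an E2F match among the 5 that rose. The match begins at base 12 counted from the start, and the window also holds 2 CCAAT matches. It was chosen after the values were seen.
Rad51ap1: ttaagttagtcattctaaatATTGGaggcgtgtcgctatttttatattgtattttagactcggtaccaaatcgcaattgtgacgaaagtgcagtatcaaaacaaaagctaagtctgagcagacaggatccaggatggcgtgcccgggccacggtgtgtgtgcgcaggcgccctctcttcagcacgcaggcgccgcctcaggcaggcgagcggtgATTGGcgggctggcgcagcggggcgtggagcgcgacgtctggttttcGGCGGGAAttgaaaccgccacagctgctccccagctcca

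None of the 7 Fanconi members passed as higher or lower in limma's test, beside 19.5% and 28.2% of all genes tested. Of the 7, 3 had an unadjusted p under 0.05 by limma, beside 6873 of the 12510 genes tested. The median log2 fold change was 0.15. The 3 with the largest changes all had a higher mean in SEMA6A cells. Fancm, the helicase that recognises stalled forks, was at 5.65, 6.12 and 8.46 TPM in control and at 10.9, 7.88 and 10.0 TPM in the SEMA6A libraries (log2 fold change 0.46, SE 0.17, adjusted p = 0.063 by limma). The third control library lay above the second SEMA6A library, and leaving out either gave a call as higher (adjusted p = 0.021 and 0.039 by limma). Fanci, which with FANCD2 forms the clamp that is ubiquitinated at crosslinks, was at 5.97, 5.49 and 4.96 TPM in control and at 6.94, 7.24 and 6.02 TPM in the SEMA6A libraries, without overlap (log2 fold change 0.26, SE 0.10, adjusted p = 0.075 by limma). Fancd2 was at 8.36, 8.94 and 8.97 TPM in control and at 9.73, 9.72 and 10.3 TPM in the SEMA6A libraries, also without overlap (log2 fold change 0.16, SE 0.062, adjusted p = 0.069 by limma). All 3 passed as higher with library medians set equal and after quantile normalization. The core complex members Fanca, Fancb and Fancc were at 17.9 ± 0.96, 5.603 ± 0.75 and 3.91 ± 0.38 TPM in control and at 20.1 ± 3.2, 5.08 ± 0.15 and 3.71 ± 0.55 TPM in SEMA6A cells (mean ± SD, n = 3 each). Fanca passed as higher without the second SEMA6A library (adjusted p = 0.021 by limma). The helicase Brip1 was at 4.48 ± 0.89 and 3.89 ± 0.65 TPM and did not pass. Fanci shares 16.0% of its exon bases with Polg on the opposite strand, and Fancc 16.4% with the antisense gene Gm16133, which averaged 0.062 TPM.

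Of the 3 mismatch repair members, 1 fell (33.3%, beside 28.2% of all genes tested) and 2 did not pass. Msh6, the subunit that recognises single-base mismatches, was at 29.0, 29.6 and 30.2 TPM in control and at 26.4, 26.6 and 26.2 TPM in the SEMA6A libraries. The change was small but larger than the spread within either group, with a log2 fold change of -0.16 (SE 0.038, adjusted p = 0.014 by limma). It did not pass with library medians set equal (adjusted p = 0.19 by limma) or after quantile normalization (adjusted p = 0.083 by limma). Msh3, which recognises insertion and deletion loops, was at 10.5, 9.32 and 9.26 TPM in control and at 8.79, 7.19 and 8.36 TPM in the SEMA6A libraries, all of the latter lower (log2 fold change -0.23, SE 0.092, adjusted p = 0.079 by limma). Pms2, an endonuclease subunit, was at 8.63, 8.10 and 8.61 TPM in control and at 10.8, 7.17 and 9.16 TPM in the SEMA6A libraries, which lay on both sides of the controls (log2 fold change 0.072, SE 0.13, adjusted p = 0.69 by limma).

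Of the 4 excision repair members, 2 rose (50%, beside 19.5% of all genes tested) and 2 did not pass. The median log2 fold change of these 4 members, 0.26, was the highest of the 6 pathways. Over 37 further excision repair genes tested, the median was 0.017. Xpa, the scaffold that verifies damage in nucleotide excision repair, was at 16.0, 14.1 and 12.1 TPM in control and at 19.5, 21.1 and 23.5 TPM in the SEMA6A libraries. Xpa lies on the - strand at chr4:46155347-46196311 (GRCm38). The groups did not overlap, and it was an upregulated DEG with a log2 fold change of 0.57 (SE 0.11, adjusted p = 0.0064 by limma). In the fit without the third control library its log2 fold change was 0.48, under the DEG threshold. Ncbp1, which overlaps 4.07% of the exon bases of Xpa on the opposite strand, rose from a mean of 71.1 to 88.6 TPM (log2 fold change 0.31, adjusted p = 4.5e-04 by limma). Ung, the glycosylase that removes uracil from DNA, was at 6.24, 6.70 and 6.85 TPM in control and at 8.97, 8.12 and 10.6 TPM in the SEMA6A libraries, where the third was the highest (log2 fold change 0.42, SE 0.10, adjusted p = 0.015 by limma). Ercc1, part of the nuclease that cuts beside a lesion, was at 48.5, 49.6 and 42.8 TPM in control and at 43.4, 59.5 and 49.1 TPM in the SEMA6A libraries, which overlapped (log2 fold change 0.10, SE 0.12, adjusted p = 0.52 by limma). The base excision scaffold Xrcc1 was at 41.6 ± 2.5 and 40.3 ± 0.74 TPM (mean ± SD, n = 3 each).

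**Figure D4:**
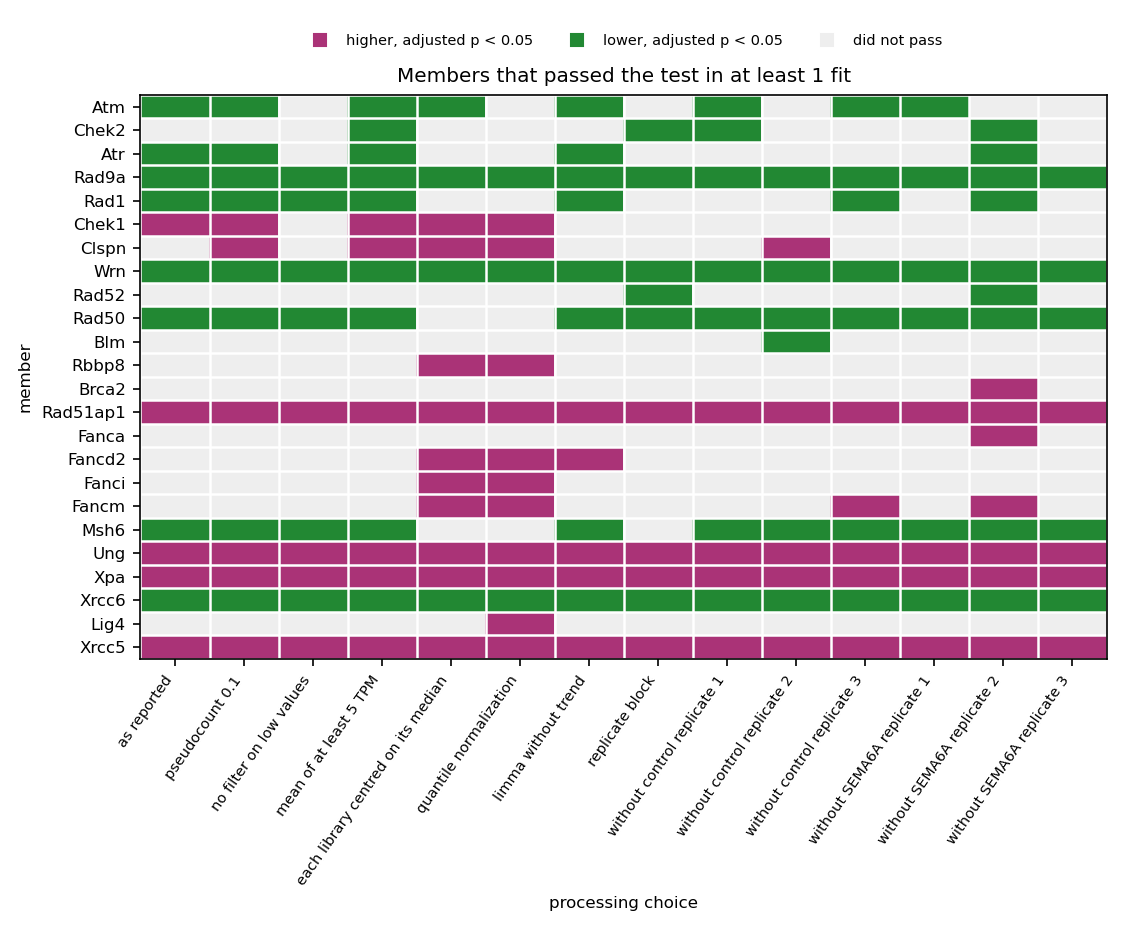
Calls at an adjusted p under 0.05 (colour) for the 24 members that passed in at least 1 fit (vertical axis) under the reported fit and 13 alternatives (horizontal axis). Rad9a, Wrn, Rad51ap1, Ung, Xpa, Xrcc6 and Xrcc5 are coloured in every column, Chek1 is grey in every column that leaves out a library, and no member is called in both directions.

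The other genes of these pathways were taken from wider lists. Of 114 further checkpoint and repair symbols listed, H2afx and H2ax naming the same gene, 110 were tested. Of these, 24 rose (21.8%) and 23 fell (20.9%), beside 19.5% and 28.2% of all genes tested, with a median log2 fold change of 0.042. In the wider checkpoint list 10 of 22 rose (45.5%) and 1 fell (4.55%). H2ax, the histone variant phosphorylated around breaks, rose most, from 52.6, 56.4 and 57.3 TPM in the control to 100.4, 100.3 and 96.7 TPM in the SEMA6A libraries (log2 fold change 0.83, SE 0.041, adjusted p = 2.5e-05 by limma). Mdc1, which binds that phosphorylated histone, was the 1 that fell (log2 fold change -0.19, adjusted p = 0.049 by limma). The fork protection pair Timeless and Tipin rose by 0.48 and 0.56 on the log2 scale. Rfc2, Rfc3 and Rfc4 rose by 0.40, 0.49 and 0.33, whereas Rfc5 did not pass. The single-stranded DNA binding subunits Rpa1 and Rpa2 rose by 0.51 and 0.36, whereas Rpa3 was at 87.8 ± 2.4 and 87.9 ± 3.5 TPM (mean ± SD, n = 3 each) and did not pass.

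In the wider recombination list 3 of 25 genes rose (12%) and 4 fell (16%), beside 19.5% and 28.2% of all genes tested. The largest rise was in Gen1, a resolvase (log2 fold change 0.56, adjusted p = 0.016 by limma), and the largest fall in Rad54l2 (log2 fold change -0.68, adjusted p = 4.6e-04 by limma). The wider Fanconi list held 3 rises and 3 falls among 11 genes (27.3% each). Usp1, which removes ubiquitin from FANCD2, rose from 42.9 ± 1.5 to 69.6 ± 1.1 TPM (mean ± SD, n = 3 each, adjusted p = 3.7e-05 by limma), and Fancg of the core complex fell from 6.31 ± 0.36 to 3.96 ± 0.97 TPM (adjusted p = 0.024 by limma). In the wider excision list 8 of 37 genes rose (21.6%), led by the TFIIH subunit Gtf2h1 (log2 fold change 0.54, adjusted p = 5.5e-04 by limma). In the same list 10 fell (27.0%), led by the lesion sensor Ddb2 (log2 fold change -0.73, adjusted p = 0.0020 by limma). None of the 3 further mismatch repair genes tested passed in limma's test. None had an unadjusted p under 0.05 by limma, beside 6873 of the 12510 genes tested.

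Many repair genes are transcribed with the genes of DNA replication in the cell cycle, so these were set beside them. Of 20 replication genes, 17 rose (85.0%, beside 11.4% of the members and 19.5% of all genes tested) and 1 fell. Their median log2 fold change was 0.47, beside -0.050 for the members. Their summed level was 1055 to 1088 TPM in the control and 1485 to 1519 TPM in the SEMA6A libraries. Tyms, which makes thymidylate, rose most, from 44.2 ± 2.2 to 78.4 ± 5.0 TPM (mean ± SD, n = 3 each, adjusted p = 1.1e-04 by limma), and Gins3 of the replicative helicase was the 1 that fell (log2 fold change -0.19, adjusted p = 0.049 by limma). The difference between the lists was not tested. Bulk libraries cannot tell a larger share of cells in S phase from more transcript per cell.

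**Figure D5:**
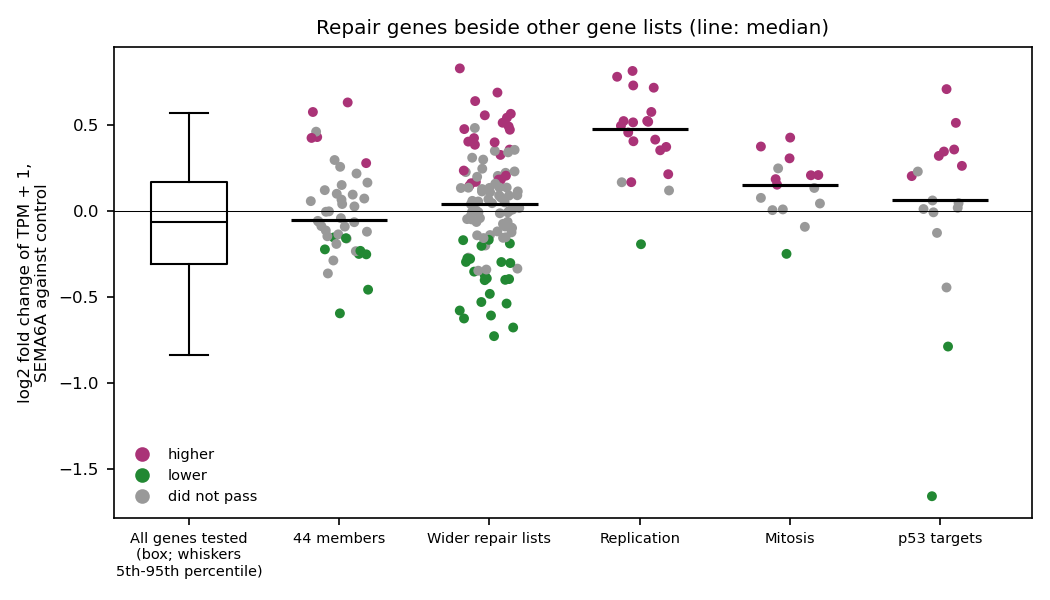
Log2 fold change of TPM + 1 (SEMA6A against control, vertical axis) for single genes as points in 5 lists, with a line at each list's median, beside a box for all 12510 genes tested (median, quartiles, whiskers at the 5th and 95th percentile). The 44 members have a median of -0.050 near that of all genes, the replication genes one of 0.47.

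Promoter windows of RefSeq were matched for 35 of the 44 members. An E2F match stood in 10 of the 35 (28.6%), in 10 of 15 matched replication genes (66.7%), in 668 of the 9205 matched genes tested (7.26%) and in 997 of all 27025 genes of the table (3.69%). Among the members, it stood in 2 of the 5 that rose, in 2 of the 5 matched genes that fell (Msh6 and Xrcc6) and in 6 of the 25 matched genes that did not pass (24.0%). The CCAAT motif stood in 21 of the 35 members (60%), in 44% of genes tested and in 41.1% of all genes. The CHR motif (TTTGAA), also of cell cycle genes, stood in 2 of the 35 (5.71%), in 14.3% of genes tested and in 20.2% of all genes. The 3 motifs do not contain one another, but 2 of the 3 E2F forms can overlap at one place. Matches describe the sequence of these windows and no binding.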

How the data were processed

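Poly-A mRNA of 3 control and 3 SEMA6A libraries of SL4 cells was fragmented, reverse transcribed from random hexamers and sequenced on an Illumina platform. The deposited values are TPM per gene and library as the authors made them, with group means that were not used here. The submitters' processing notes name HISAT, Bowtie2, RSEM and mm39, with no roles or versions. TPM keeps no depth, so depth is unknown, and no count model, counting interval or count floor was used. The members and all gene lists were chosen with earlier results of these data known, so no p is given for a list.

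Genes whose TPM averaged 1 or more over the 6 libraries were tested with limma 3.58.1 in R 4.3.3 (empirical Bayes with trend) on log2(TPM + 1), with group as the only term. This scale understates the change of low genes. Members passed at an adjusted p under 0.05 (Benjamini-Hochberg over 12510 genes), and DEGs also needed an absolute log2 fold change over 0.5. On data simulated for this comparison over 12510 genes, the test recovered 54.5% of 200 genes given a log2 change of 0.5 and 93.0% of those given 1. Of the calls, 6.03% and 7% were false in the same order. Far more than 200 genes were called in the real data, so these shares do not carry over to it. Changes under 0.5 were not simulated. All members are named. Library values are given for the 3 with the largest change in each pathway, for DEGs and for further members chosen after their values were seen, and of each further list the genes with the largest rise and fall among those that passed are named. The RPA subunits, the Rfc genes, Timeless and Tipin were named after their values were seen. H2afx was matched as H2ax. Alternatives changed the pseudocount (0.1), the filter (none, or 5 TPM), the scaling (median centring, quantile normalization), the trend, a replicate block, and each library in turn. Identifiers were matched to GENCODE M21 on GRCm38 for 52093 of 53700 genes (97.0%), to find overlaps and shared 31-base stretches. Promoters came from RefSeq (GRCm38.p6) and matched 35 members. Exo1, Fancd2, Nbn, Prkdc, Rad50, Rad9a, Rbbp8, Wee1 and Wrn had no entry.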

Additional observations from a re-analysis of the deposited data

How the results depend on the processing

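All 13 members that passed kept their direction in the alternatives run, and no called fold change turned its sign. Another pseudocount (0.1) gave 2 downregulated DEGs, and testing all genes with no filter gave 0. A minimum of 5 TPM moved the members' median log2 fold change to -0.023. Centring each library on its median gave 10 members higher, 4 lower and 5 upregulated DEGs, with medians of 0.043 over all members, 0.077 for the checkpoint, -0.011 for homologous recombination, 0.35 for excision repair and 0.11 for end joining. Quantile normalization gave 11 higher, 3 lower, 4 upregulated and 0 downregulated DEGs, with medians of 0.067, 0.046, 0.028, 0.35 and 0.18 in the same order. The cause was not tested. Leaving out 1 library at a time gave 4 to 7 members higher, 5 to 9 lower, 2 to 5 upregulated DEGs and 0 to 1 downregulated. The members higher were 9.09% to 15.9%, beside 16.7% to 17.2% of all genes tested. The members lower were 11.4% to 20.5%, beside 23.4% to 25.1%. In these fits the median over all members ran from -0.054 to -0.013, over the checkpoint from -0.061 to 0.018, over homologous recombination from -0.14 to -0.071, over excision repair from 0.22 to 0.32 and over end joining from -0.020 to 0.039. With a replicate block 4 members were higher (9.09%), 6 lower (13.6%) and 0 downregulated DEGs. Over all genes tested 17.3% were higher and 24.5% lower with that block. Deviations of libraries with the same replicate number correlated at -0.059 on average (-0.079 to -0.023), so no pairing by number was seen. With 3 libraries per group, these correlations cannot exclude a pairing. TPM keeps no depth, so how far depth limits the low members is unknown.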

Other observations

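Of 17 tested targets of the tumour suppressor p53, which arrests or kills cells with damaged DNA, 7 rose, 2 fell and 8 did not pass. The rises and falls are 41.2% and 11.8% of the 17, beside 19.5% and 28.2% of all genes tested. The median log2 fold change was 0.061. Cdkn1a, the p21 inhibitor of cyclin-dependent kinases, rose from 27.1, 28.1 and 28.1 TPM in the control to 45.9, 45.0 and 47.1 TPM in the SEMA6A libraries (log2 fold change 0.71, SE 0.037, adjusted p = 3.1e-05 by limma). Gadd45b, a stress-induced gene, fell from 31.9, 31.6 and 35.5 TPM to 11.4, 8.45 and 9.70 TPM (log2 fold change -1.66, SE 0.11, adjusted p = 6.1e-05 by limma). The groups did not overlap for either gene.

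Of 15 mitosis genes, 7 rose (46.7%), 1 fell (6.67%) and 7 did not pass, beside 19.5% higher and 28.2% lower over all genes tested. The median log2 fold change was 0.15. Ccnb1, the cyclin that drives entry into mitosis, rose from 85.9 ± 1.3 to 116 ± 1.3 TPM (mean ± SD, n = 3 each, adjusted p = 5.9e-05 by limma). Bub1, a spindle checkpoint kinase, fell from 30.0 ± 1.5 to 25.2 ± 2.6 TPM (adjusted p = 0.041 by limma).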
